A study of Saccharomyces cerevisiae with 6 samples.

Results

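A set of 6 genes that act in meiotic DNA double-strand break formation was followed across the 6 libraries of a meiotic time course in budding yeast: SPO11 (YHL022C), REC102 (YLR329W), REC104 (YHR157W), REC107 (YJR021C), REC114 (YMR133W) and MEI4 (YER044C-A). They were chosen by name, as the rows of the deposited table whose description gives these symbols, and all 6 were found among 6679 open reading frames (ORFs). All 6 also passed the filter on low values, which 6025 ORFs passed, and no member passed it through a single group. The libraries came from SK1 cultures labelled wild type (WT), grown in YPD and then BYTA and moved to sporulation medium at 0 h. At 5 h either ethanol (EtOH), the vehicle, or the inducer bEST was added, and cells were collected for RNA at 6, 6.5 and 7 h, hence 1, 1.5 and 2 h into the treatment. There were 3 vehicle and 3 inducer libraries, 1 for each treatment and hour, with no replicate of any treatment at any hour. The series describes the treated cells as carrying high levels of spliced HAC1 mRNA, the mRNA of the transcription factor of the unfolded protein response, driven from outside. The labels name no construct, and inducer without a driven HAC1 was not analysed here, so effects of the inducer and of HAC1 cannot be told apart.

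In meiosis, cells cut their own DNA at many places so that homologous chromosomes can find each other and exchange DNA. In budding yeast Spo11, a relative of the DNA-cutting subunit of archaeal topoisomerase VI, makes the cut and stays bound to the DNA ends. Rec102 and Rec104 bind Spo11 in a core complex, and Rec114, Mei4 and Rec107 (also called Mer2) form a second group that gathers on the chromosome axis and recruits the core complex. A cell lacking any one of them makes no breaks. SPO11, REC102, REC104, REC114 and MEI4 are classed as early meiotic genes, a set switched on by Ime1 and Ume6 before the meiotic divisions.

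The libraries held 6.02 to 21.7 megareads as recovered from the deposited values, and HAC1 itself stood at 98.4 to 128 in vehicle and at 28926 to 53257 with inducer. Values are the authors' RPKM-type values, normalised for gene length and library depth, so levels can be compared between genes. Behind the values of the break genes lay 301 reads (REC107, vehicle at 6.5 h) to 2514 reads (REC104, inducer at 6.5 h). Changes are differences on the scale of log2(value + 1), and the fitted change between inducer and vehicle has hour as a factor. Its standard error (SE) comes from the 3 hour-matched pairs, moderated by limma toward the trend of variance over all 6025 ORFs. The median total degrees of freedom were 7.41. The adjusted p comes from limma with Benjamini-Hochberg correction over the same ORFs, with a call at an adjusted p under 0.05. Separate cultures are not stated in the labels, so the p-values measure moderated spread among these libraries, which may be technical. For the fitted change this is variation of the treatment difference across hours, not variation among replicates.

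Of the 6 genes, 5 were lower with inducer from 6.5 h on, and REC107 was higher. SPO11, REC102 and REC114 fell by 0.68 ± 0.16, 0.68 ± 0.17 and 0.84 ± 0.19 (SE, 3 pairs; limma adjusted p = 0.0271, 0.0312 and 0.0259), which is 1.6-, 1.61- and 1.79-fold. MEI4 at -0.59 ± 0.18 (limma adjusted p = 0.0603), REC104 at -0.46 ± 0.19 (adjusted p = 0.128) and REC107 at 0.39 ± 0.20 (adjusted p = 0.2) did not pass. Thus 3 of 6 were called lower and 0 higher, where 8.35% of all tested ORFs were called lower and 10.0% higher. The median change was -0.63 over the 6 genes and -0.08 over all tested ORFs. The 3 calls depended on the pairs kept, as did calls over all tested ORFs. Leaving out the 6.5 h pair or that of 7 h ended all calls among the 6 genes. SPO11, REC102 and REC114 were then at -0.59, -0.58 and -0.66 without 6.5 h and at -0.57, -0.57 and -0.72 without 7 h. Over all tested ORFs, 604 higher and 503 lower became 196 and 22 without 6.5 h, and 76 and 9 without 7 h. Without the 6 h pair all 6 genes passed, 5 lower and REC107 higher, beside 723 ORFs higher and 535 lower. With hour left out of the fit SPO11, REC102 and REC114 also missed the threshold (limma adjusted p = 0.0767, 0.111 and 0.0544). In that fit 484 ORFs were called higher and 145 lower.

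**Figure D1:**
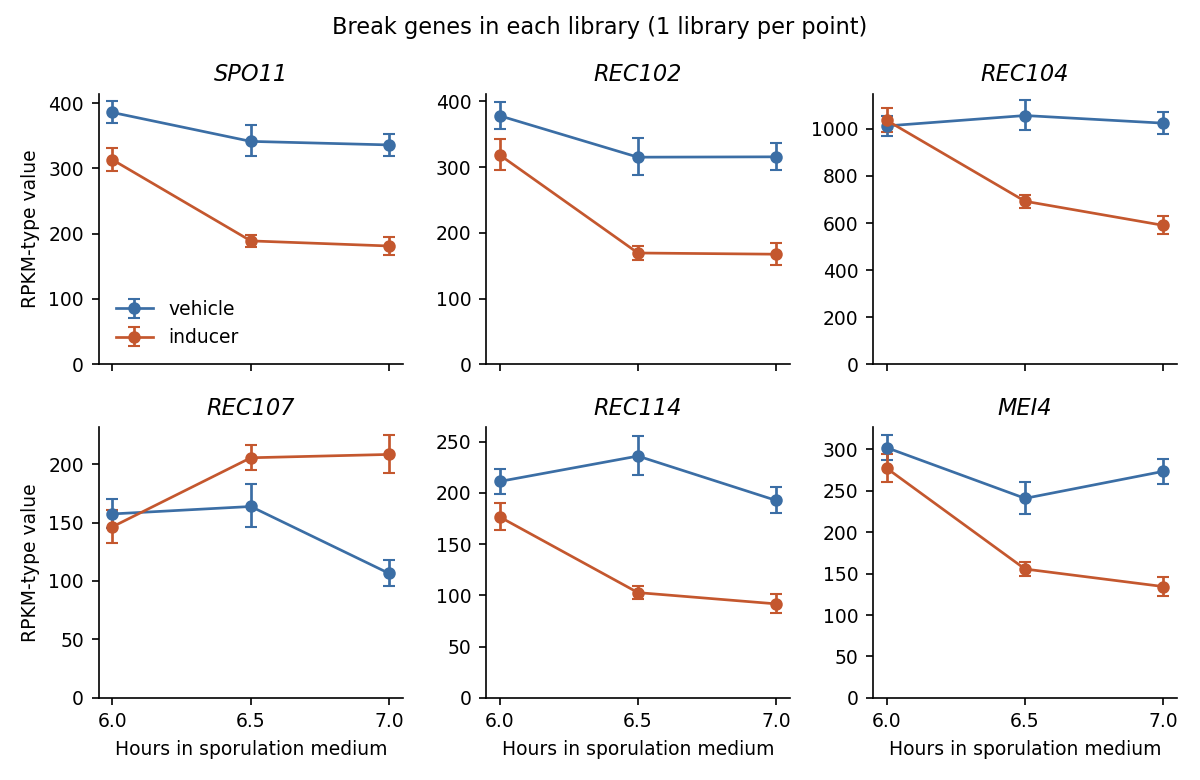
RPKM-type value of each break gene (y axis, from 0) against hours in sporulation medium (x axis), with 1 library per point and lines joining the libraries of a treatment; bars are exact 95% Poisson intervals of the recovered reads and cover counting error only. The other 5 genes separate downwards in the inducer libraries at 6.5 and 7 h, while REC107 reaches 205.5 and 208.3 there.

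SPO11, the gene of the catalytic protein, had values of 385.6, 341.3 and 335.9 in the vehicle libraries at 6, 6.5 and 7 h. With inducer its values were 313.1, 189.0 and 181.2. Every inducer library was below every vehicle library, as in 14.1% of all tested ORFs. The step within the inducer arm came between 6 and 6.5 h. At 6.5 and 7 h the inducer library held 0.55 and 0.54 times the value of its vehicle partner, against 0.81 times at 6 h.

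The core complex partners of SPO11 differed from each other in level but less in direction. REC102 had 378.2, 315.1 and 315.6 in vehicle and 318.6, 169.3 and 167.5 with inducer, so its inducer library at 6 h lay inside the vehicle range and the later ones far below it. REC102 tracked SPO11 closely, at 0.90 to 1.02 times its value in all 6 libraries. REC104, whose product joins Rec102 and Spo11 in the core complex, was the most abundant of the 6 genes in every library. It had 1012.4, 1056.5 and 1024.1 in vehicle and 1036.0, 692.5 and 590.1 with inducer. The 6 h pair of REC104 did not differ beyond counting error (95% Poisson intervals 971 to 1055 and 987 to 1087), and at 7 h the inducer library held 0.58 times the vehicle value.

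REC114 and MEI4, which encode partners of a single complex, had the lowest ratios of inducer to vehicle at 7 h. These lay close to those of REC102 (0.53) and SPO11 (0.54), with 1 library per treatment. At 6.5 h the ratio of MEI4 was 0.65, above those of REC102 (0.54) and SPO11 (0.55). REC114 had 211.1, 235.8 and 192.5 in vehicle and 176.5, 102.6 and 91.7 with inducer. Like SPO11, it had no overlap between the treatments, a pattern of lower inducer libraries shared with 14.1% of all tested ORFs. MEI4 had 302.2, 241.0 and 273.6 in vehicle and 277.3, 155.6 and 134.4 with inducer. Its 6 h inducer library was above 2 of the 3 vehicle libraries, and its later inducer libraries were below all of them. At 7 h the inducer library of REC114 held 0.48 times and that of MEI4 0.49 times the vehicle value.

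REC107 went the other way. It encodes the axis-bound organiser of the Rec114 and Mei4 group, whose phosphorylation by the cell cycle kinases Cdc28 and Cdc7 licenses break formation. REC107 had 157.4, 163.8 and 106.5 in vehicle at 6, 6.5 and 7 h and 146.4, 205.5 and 208.3 with inducer. The 6 h libraries overlapped in their counting intervals (145 to 170 and 133 to 161), and at 6.5 and 7 h the inducer value was 1.25 and 1.96 times the vehicle value. The 7 h ratio combines the higher inducer value with a vehicle value that was 0.68 times that at 6 h. Within the inducer arm REC107 was 1.42 times as high at 7 h as at 6 h, whereas the other 5 genes were at 0.48 to 0.58 times.

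**Figure D2:**
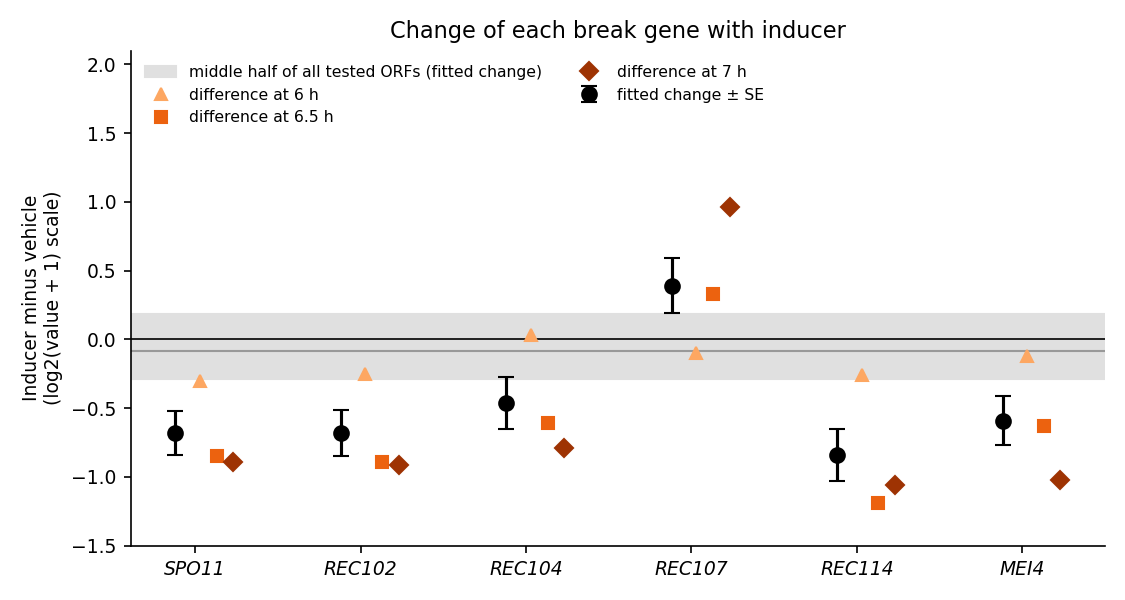
Inducer minus vehicle for each break gene on the log2(value + 1) scale. Black points with bars are the fitted change ± moderated SE from the 3 pairs. Coloured markers are the single differences at 6, 6.5 and 7 h. The grey band holds the middle of the fitted changes of all tested ORFs, between their quartiles, with the grey line at the median. REC107 lies at 0.39 and the other 5 genes at -0.46 to -0.84, and the 6 h differences lie closest to 0.

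Set hour by hour, the differences grew after 6 h, with 1 library per treatment and no test at a single hour. A size of 0.5 on the log2 scale was taken, after the values had been seen, to count differences. At 6 h none of the 6 genes was past it, with 7.20% of tested ORFs lower and 7.49% higher by more than that. At 6.5 h 5 genes were lower and none higher, beside 20.5% lower and 15.5% higher among all tested ORFs. At 7 h 5 genes were lower and REC107 was higher, beside 13.3% and 18.7%. The median difference of the 6 genes was -0.18, -0.74 and -0.90 at 6, 6.5 and 7 h, and that of all tested ORFs -0.06, -0.12 and -0.04. At 7 h only 1.8% of tested ORFs had a difference below that of REC114 and 5.0% below that of REC104, while 90.8% lay below that of REC107.

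Change over the hour of sampling was not called for any of the 6 genes. With treatment in the fit, the slopes were -0.59 ± 0.22 per hour for REC102, -0.59 ± 0.23 for MEI4, -0.54 ± 0.22 for REC114, -0.49 ± 0.19 for SPO11 and -0.40 ± 0.21 for REC104 (limma adjusted p between 0.176 and 0.297). REC107 was at -0.03 ± 0.25 (adjusted p = 0.962). The median slope was -0.51 over the 6 genes and -0.15 over all tested ORFs. With libraries scaled to equal medians, that of the 6 genes was -0.36. Few genes were called at all in this comparison, 0.249% of tested ORFs as higher and 0.415% as lower. At an unadjusted p under 0.05 limma had 214 ORFs higher and 1121 lower over time, 4 of the 6 genes among the latter. The difference in slope between inducer and vehicle was 1.07 ± 0.35 for REC107 and between -0.59 and -0.90 for the other 5. No ORF passed this test in either direction (0% of 6025), and the unadjusted p was under 0.05 for 528 ORFs higher and 186 lower, REC107, REC104, MEI4 and REC114 among them. The smallest adjusted p among the 6 genes was 0.286, for REC107.

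The order of the levels changed with inducer. In all 3 vehicle libraries it was REC104, SPO11, REC102, MEI4, REC114 and REC107 from high to low, and the neighbours SPO11 and REC102 overlapped in their counting intervals in each. MEI4 and REC114 overlapped in this way in vehicle at 6.5 h only. REC107 was the lowest of the 6 genes in vehicle and in the 6 h inducer library, and ranked second at 6.5 and 7 h with inducer. There its counting intervals overlapped those of SPO11, the next in order (195 to 217 and 180 to 199 at 6.5 h, 192 to 225 and 168 to 195 at 7 h), and lay above those of REC102, MEI4 and REC114. The share of REC107 in the summed value of the 6 genes was 4.7 to 7.0% in vehicle and 6.5%, 13.6% and 15.2% with inducer at 6, 6.5 and 7 h. REC104 took 41.4 to 45.7% in every library. The summed value was 2447, 2354 and 2248 in vehicle and 2268, 1515 and 1373 with inducer.

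Ratios within a library do not depend on how libraries were scaled. REC107 stood at 0.75, 0.69 and 0.55 times REC114 in vehicle and at 0.83, 2.0 and 2.27 times with inducer. Relative to MEI4 it was at 0.39 to 0.68 in vehicle and at 0.53, 1.32 and 1.55 with inducer. These ratios show unequal change of the genes that form the axis-bound group. The ratio of REC114 to MEI4 was 0.64 to 0.70 in 5 libraries and 0.98 in vehicle at 6.5 h. That library was the shallowest, with 601 reads for REC114 and 584 for MEI4. A part of depth in this ratio was not tested. Over the 6 libraries the other 5 genes correlated with each other at r = 0.92 to 0.99 in all 10 pairs and with REC107 at -0.69 to -0.79. These are descriptions over 6 shared libraries, without a test.

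**Figure D3:**
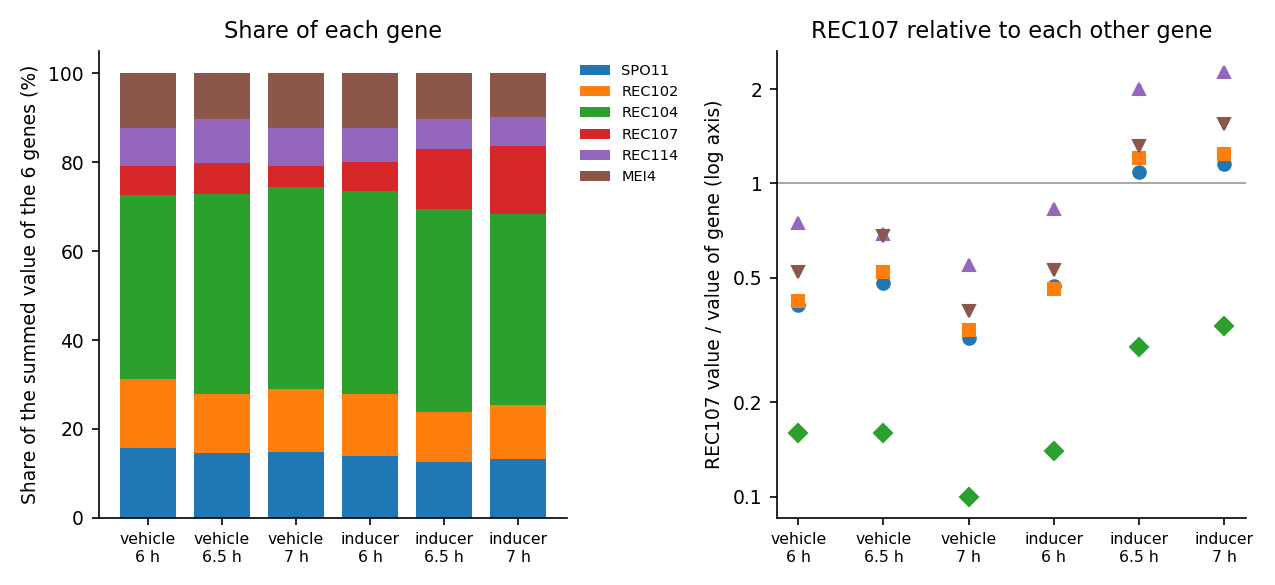
Left, share of each break gene in the summed value of the 6 genes in each library (%); right, value of REC107 divided by that of each other gene in the same library (log axis, colours as on the left, line at equal values). REC107 takes 13.6% and 15.2% of the sum in the inducer libraries at 6.5 and 7 h, where it lies above REC102, MEI4 and REC114 and overlaps SPO11 within counting error.

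Gene structure and neighbours were compared as well. In the S288C reference REC102, REC107, REC114 and MEI4 each have 1 intron and SPO11 and REC104 none, so the intron-bearing genes fell on both sides of 0. The deposited values gave whole reads, within 0.05 of a read, in 6 of 6 libraries for every member when the spliced coding length was used, and in 0 to 2 of 6 for those 4 genes when the intron was included. From a single value per ORF, spliced and unspliced transcripts cannot be told apart. No member overlaps another annotated gene in that reference. REC107 shares its upstream region with LSM8, a subunit of the nuclear Lsm ring that binds U6 RNA, transcribed in the opposite direction. LSM8 had 195.1, 201.5 and 144.6 in vehicle and 285.7, 496.4 and 468.0 with inducer, and rose by 1.18 ± 0.21 (limma adjusted p = 0.0128). All inducer libraries of LSM8 were above all vehicle libraries, a pattern shared with 17.3% of all tested ORFs. The sources used here do not state whether reads were assigned by strand, and a part of LSM8 transcription in the REC107 values was not tested. Of the other 10 neighbours in the table, AIM17 upstream of SPO11 fell by 0.88 ± 0.16 and ERG29 downstream of REC114 by 0.57 ± 0.15 (adjusted p = 0.0129 and 0.0361). The remaining 8 were not called, at -0.41 to 0.30.

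The genes that work beside the 6 were described by lists chosen with earlier results of these data known. Beside the counts of called genes in this and the following lists, 10.0% of all tested ORFs were called higher and 8.35% lower. Among 17 partners of break formation and end processing 1 rose and 1 fell, with a median of -0.15. SWD1, a subunit of the Set1 complex that methylates histone H3 at promoters and break sites, rose by 0.53 ± 0.14 (adjusted p = 0.0383). DBF4, the activating subunit of the Cdc7 kinase that acts on Rec107, fell by 0.52 ± 0.14 (adjusted p = 0.0411). SKI8, whose product is the fourth subunit of the Spo11 core complex and also works in RNA decay, had 308.7, 228.9 and 235.7 in vehicle and 302.0, 197.8 and 192.1 with inducer. Its change was -0.18 ± 0.13 (adjusted p = 0.354). SPP1, whose product links Rec107 to histone marks, was at 0.30 ± 0.14 (adjusted p = 0.185). MRE11 and RAD50, which trim the break ends, were at 0.03 ± 0.17 and -0.33 ± 0.14. XRS2, whose product works with them, was at 0.34 ± 0.14 (limma adjusted p = 0.117), not called.

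Of 6 axis and cohesin genes, RED1 and HOP1, the axis proteins that the Rec114 group depends on, fell by 0.72 ± 0.15 and 0.86 ± 0.18 (adjusted p = 0.0183 and 0.0184). The cohesin subunit SMC3 rose by 0.89 ± 0.19 (adjusted p = 0.0201), and the meiotic cohesin REC8 was at 0.38 ± 0.14 (adjusted p = 0.106). The cohesin subunit SMC1 went the other way at -0.32 ± 0.12, as did MEK1 of this list at -0.45 ± 0.17. Neither was called (limma adjusted p = 0.106 for each). Of 12 strand exchange genes 3 fell, MND1 by 0.87 ± 0.20, DMC1, the meiotic recombinase, by 0.70 ± 0.19 and RAD52 by 0.52 ± 0.13. RAD55 rose by 1.24 ± 0.17 (adjusted p = 0.00495), from 18.4 to 22.4 in vehicle to 39.9 to 55.7 with inducer. Of 12 listed synaptonemal complex and crossover genes 11 were found, and ZIP3 was not matched by its symbol. Among these 11, 5 fell and none rose, ZIP2, HFM1, MSH4, ECM11 and MLH3, by 0.51 to 0.84. The medians of these lists were -0.38, -0.40 and -0.54. Among 10 regulators IME1, RIM4 and UME6 fell by 1.04 ± 0.20, 0.98 ± 0.20 and 0.60 ± 0.15, and SUM1, a repressor of middle genes, rose by 0.66 ± 0.18 (adjusted p between 0.0144 and 0.0408). The median of the regulators was -0.31.

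The meiotic splicing factor Mer1, with the U1 protein Nam8, promotes removal of the introns of REC107, HFM1, SPO22 and AMA1. MER1 had 88.4, 79.9 and 79.9 in vehicle and 84.0, 35.8 and 40.9 with inducer, a change of -0.72 ± 0.21 (adjusted p = 0.0522). Its later inducer libraries lay below every vehicle library, and the 6 h one among them. NAM8 fell by 0.54 ± 0.13 and HFM1 by 0.75 ± 0.17 (adjusted p = 0.0317 and 0.0269). SPO22 was at -0.57 ± 0.18 (adjusted p = 0.063) and AMA1 at -0.09 ± 0.15 (adjusted p = 0.688), so 2 of these 5 listed genes fell and none rose.

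**Figure D4:**
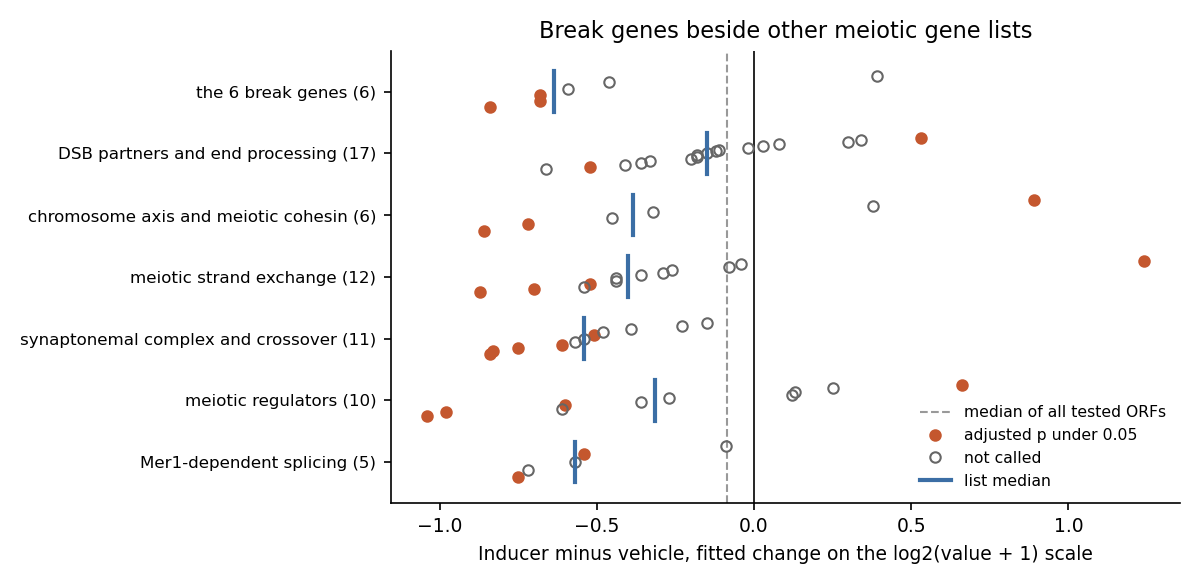
Fitted change between inducer and vehicle (x axis, log2(value + 1) scale) of each gene in 7 groups, with the number of genes in brackets; filled points are called at an adjusted p under 0.05, open points are not, blue bars are group medians and the dashed line is the median of all tested ORFs. The break genes have a median of -0.63 with REC107 apart at 0.39.

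Markers of meiotic stage and of other cells moved in part with the break genes. Beside the marker counts, 8.35% of all tested ORFs were called lower and 10.0% higher. All 6 prophase markers were present, and their summed value was 10245 to 13261 in vehicle and 6222 to 11672 with inducer, most of it DMC1 and IME2. HOP1, RED1 and DMC1 were called lower and none higher. These 3 markers also stand in the lists above. ZIP1 and IME2 were at -0.48 ± 0.14 and -0.61 ± 0.20, not called. REC8 went the other way, also not called, at 784.0 to 961.8 in vehicle and 1083.2 to 1155.4 with inducer. No middle meiotic marker (10 genes) or spore wall marker (7) was called between treatments. The sums were 129198 to 204563 and 145890 to 176860 for middle markers, most of it SPS4 (94147 to 162429 and 110059 to 143951), a gene of sporulation whose change was 0.12 ± 0.16. The other 9 middle markers were at -0.30 to -0.04, none of them called. The sums of the spore wall markers overlapped, at 27060 to 31487 and 23705 to 29622. Of 9 haploid mating markers BAR1 and MFA1 rose and FUS3 fell, with sums of 3050 to 3551 in vehicle and 3595 to 4556 with inducer. Of 9 mitotic G1 markers DSE1 and PRY3 rose and PCL1 fell, with sums of 337 to 405 and 377 to 750. All 8 targets of the unfolded protein response rose, with sums of 3253 to 4142 in vehicle and 16358 to 38037 with inducer. No marker of these lists was at 0 in all libraries. Their part in the results for the break genes was not tested, and in RNA from whole cultures fewer cells in prophase and less RNA per cell cannot be told apart.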

How the data were processed

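The authors deposited 1 table of RPKM-type values, covering 6679 ORFs and holding no counts; the values themselves showed the unit. Bowtie2, TopHat and SAMtools are named, per the submitters' processing notes; versions, build, annotation, counting and strand use were not given there or in the labels. Per the labels' protocols, libraries were directional, from poly(A) RNA, with single-end reads of 50 bp. Low values of a library fell on steps, each worth 1 read, that shrink with coding length once 60 bp are taken off. Below 40 reads, 73.4 to 80.3% came out whole within 0.02 of a read in ORFs without an intron, against 7.8 to 11.9% without the offset. Recovered reads serve for depth and for exact 95% Poisson intervals, which cover counting error only; no count test was run. Columns were matched to samples by name, and 0 belonged to unmapped samples. Symbols, introns and neighbours came from the S288C assembly R64 (5994 ORFs matched), whose build may differ, so no coordinates are given.

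ORFs with a mean of at least 5 were tested as log2(value + 1), which understates changes of low genes, by limma-trend (limma 3.58.1, R 4.3.3). Models were hour as a factor plus treatment, treatment with a linear slope over hours, and their interaction. Pairs share the labelled hour; across ORFs, the deviations of the 2 libraries of a pair from their group means correlated at 0.32, 0 and 0.11. The script was tested on simulated data. Members, lists and comparisons were chosen with earlier results of these data known. By rule, named were all members, called genes of each pathway list, otherwise up to 4 by smallest p, and the ORFs most like the members in profile. Neighbours, SKI8, SPP1, MRE11, RAD50, XRS2, REC8, SMC1, MEK1, MER1, SPO22, AMA1 and single markers were named after their values were seen. Promoter motifs were not analysed here. Alternatives covered pseudocount, filter, scaling, trend, hour coding and left-out libraries. Hour coding was varied only for inducer against vehicle, and the interaction had alternatives of pseudocount, filter and scaling only.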

Additional observations from a re-analysis of the deposited data

Results flagged for a closer look

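For REC107 the difference between inducer and vehicle had opposite signs at 6 h (-0.10) and at 6.5 and 7 h (0.33 and 0.96), and for REC104 likewise (0.03 at 6 h, -0.61 and -0.79 later). Each hour has 1 library per treatment, so the difference between hours was not tested there. The test of unequal slopes, which uses all 6 libraries, had limma adjusted p = 0.286 and 0.315 for these genes.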

How the results depend on the processing

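In the comparison of inducer and vehicle (604 ORFs higher, 503 lower, 3 break genes lower), the direction of all 6 break genes held in all 12 alternatives, and SPO11, REC102 and REC114 passed in 7 of them. Those calls were lost with no filter on low values (3 ORFs higher, 0 lower, 0 break genes), without limma's trend (435 and 260, 0 break genes) and without the hour term, that is without the pairing block (484 and 145, 0 break genes). Leaving out 1 pair gave 76 to 723 ORFs higher, 9 to 535 lower, 0 to 1 break genes higher and 0 to 5 lower, with their median at -0.85 to -0.47. The lowest counts came without 7 h (76 and 9) and the highest without 6 h (723 and 535), where REC107 passed at 0.64 (adjusted p = 0.0493); without 6.5 h they were 196 and 22. Change per hour (15 ORFs higher, 25 lower) gave 1 and 0 without the filter, 42 and 17 with equal medians, 9 and 2 with HAC1 left out of the totals, 5 and 0 without the trend, and 0 to 10 and 0 to 4 with a pair or library left out. The median slope of the break genes then lay between -0.76 and -0.18, none was ever called, and the sign for REC107 flipped in 4 of 16 alternatives. For unequal slopes only 6 alternatives were run, of pseudocount, filter and scaling, and none gave a call. The cause of these shifts was not tested. With 1 library per treatment and hour, differences at a single hour have no error beyond counting.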

Other observations

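The profile of the 6 break genes, taken as the mean of their z-scores over the 6 libraries, was compared with 5680 other ORFs with a mean of at least 20. REC107 correlated at r = -0.754 with the mean of the other 5 genes, so this profile mainly follows those 5. The most alike were CQD1 (r = 0.998), a mitochondrial protein of coenzyme Q distribution, ODC1 (0.997), a mitochondrial carrier of oxodicarboxylates, YHL008C (0.997), MLH3 (0.997), a subunit of the crossover nuclease, and ATG9 (0.996), a membrane protein of autophagy. Of these YHL008C and MLH3 fell, by 0.62 ± 0.16 and 0.51 ± 0.14 (limma adjusted p = 0.0379 and 0.0403). The least alike were MDG1, SIP18 and BNA3, at r = -0.994, -0.993 and -0.992. SIP18, a gene of desiccation stress, went from 1914, 2774 and 3512 in vehicle to 3864, 18491 and 31047 with inducer.

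By the same measure, applied to REC107 alone after its values had been seen, the most alike were TAF9 (r = 0.990), a subunit of general transcription complexes, and YDJ1 (0.989), a cytosolic J-protein, followed by FMP40, PCL10 and YNR071C (0.978 to 0.979). None of these 5 was called between inducer and vehicle, at 0.15 to 0.43. YDJ1 had 584.6, 598.8 and 395.3 in vehicle and 589.4, 766.7 and 754.3 with inducer, which like REC107 includes a low vehicle value at 7 h. These values of r rest on 6 libraries and are given without a test.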
